A study of Bos taurus with 16 samples.

Results

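SLC14A1, AQP3 and SLC5A1 encode 3 membrane proteins that move urea, water and glucose across epithelia. They were chosen by symbol, as every exon region of the coverage table that carries one of these 3 names, and make up 3 of the 12040 genes with an exon region of their own and 19 of the 113053 such regions. SLC14A1 has 5 regions, AQP3 has 2 and SLC5A1 has 12. Polyadenylated RNA of rumen papillae, the finger-like projections of the rumen wall, was sequenced with reads of 50 bases from 16 crossbred steers aged 344 ± 48 days, 1 library to each animal number in the labels. The steers had been placed by weight gain and dry matter intake into 4 groups of 4: high gain/high intake, high gain/low intake, low gain/high intake, and low gain/low intake. No treatment was given and no animal was genetically altered. All 4 groups ate freely of 1 ration, with corn (57.35%), wet distillers grains (30%), alfalfa hay (8%), a supplement (4.25%) and urea (0.4%). The groups are therefore classes of natural variation, and the size of the gain or intake difference between animals is not in the labels.

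Ruminants return urea from the blood to the rumen, where microbial urease splits it and microbes build the ammonia into protein. SLC14A1 (urea transporter B, UT-B) is a facilitative urea channel known to carry it through the rumen wall, and it is also the urea channel of red blood cells. AQP3 is an aquaglyceroporin, which passes water and glycerol and, to some extent, urea, and it is typical of the basal layers of stratified epithelia. SLC5A1 (SGLT1) takes up glucose and galactose together with sodium, driven by the gradient that the sodium pump maintains.

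A level here is the mean read coverage per base of an exon region, on the authors' scale, which gives every library nearly the same total. Reads were estimated at 11.9 to 21.2 M per library from the value that 1 read takes in the table, with 17.5 ± 2.40 M at high and 14.7 ± 1.46 M at low gain (SD, n = 8 each). Coverage of first exons was lower in 5 libraries than in the other 11, by a first-exon index (log2 of a gene's first exon less the median of its other exons, averaged over 2414 genes). The index was -4.56 to -3.96 in the 5 and -3.25 to -1.94 in the 11. The 5 libraries are high gain/high intake replicate 4, high gain/low intake replicates 2, 3 and 4, and low gain/low intake replicate 3. They are 4 of 8 high-gain and 1 of 8 low-gain libraries, and 1 of 8 high-intake and 4 of 8 low-intake libraries. The gain and intake differences of the 3 genes are therefore also given without these 5 libraries. So are the interaction and the difference between high gain/low intake and low gain/high intake. Other values are over all 16 libraries unless stated. All 7 basal keratinocyte markers were tested, with means over 16 libraries from 11.4 (ITGB4) to 392 (KRT14). Of 9 markers of upper epithelial layers 6 were tested, and KRT6A (2097), IVL (397) and SPRR3 (50.5) were high while CNFN (5.44), KRT10 (1.04) and KRT4 (0.586) were low. KRT1 and KRT13 had no exon region of their own, and LOR was under the filter on low values. In bulk tissue such as this, fewer cells of a type and less RNA per cell cannot be told apart.

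SLC14A1 had the highest mean of the 3 genes over 16 libraries when each was read in its region of highest mean (68.1, against 47.5 for AQP3 and 11.1 for SLC5A1). In the 11 libraries not low in first exons AQP3 exon 1 was higher (68.9 against 58.7). Over all 16 libraries AQP3 was also higher by the length-weighted mean of all exon regions (46.2 against 20.1). The SLC14A1 level was read over exons 8 and 9, a region of 4563 bases with intron and flanking sequence at 45919996 to 45924558 on chromosome 24 (UMD3.1). In the 4 libraries of high gain/high intake it was 36.09, 55.83, 75 and 74.04. At high gain/low intake it was 72.95, 86.87, 102.43 and 65.43. At low gain/high intake it was 47.41, 56.96, 47.34 and 42.55, the narrowest spread of the 4 groups. At low gain/low intake it was 72.8, 63.23, 115.15 and 75.23. Both low-intake groups lay mostly above both high-intake groups, but each pair of groups next to each other in the order of means overlapped.

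The group means of SLC14A1 were 81.9 ± 16.3 at high gain/low intake, 81.6 ± 23.0 at low gain/low intake, 60.2 ± 18.4 at high gain/high intake and 48.6 ± 6.04 at low gain/high intake (SD, n = 4 each). Of the steps between neighbours in this order, the smallest p was 0.229 (exact permutation test, two-sided, n = 4 against 4, lowest possible p 0.0286), with an adjusted p of 0.729 by Benjamini-Hochberg over 12 such steps for the 3 genes and both AQP3 regions. No step passed after adjustment, with adjusted p of 0.729 or more in all 12. With 4 against 4 animals and 12 steps, a single pair of groups without any overlap could not have passed either. The pairs were also chosen from these values, as neighbours in the order of means. The test therefore cannot decide whether neighbouring groups differ.

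AQP3 was read in 2 regions on chromosome 8 (UMD3.1) that behaved differently. Exon 1 is a region of 213 bases at 76531133 to 76531345, and exons 2 to 6 with the introns between them form a region of 5765 bases at 76525361 to 76531125. Exon 1 has the higher mean over the 16 libraries and so stood for the gene in the fit across genes. Its level in the 4 libraries of high gain/high intake was 29.82, 59.02, 25.71 and 0.18. At high gain/low intake it was 38.01, 0.38, 0.15 and 0.16. At low gain/high intake it was 99.79, 78.03, 91.66 and 49.48, and at low gain/low intake 105.57, 97.28, 0.19 and 83.89. The 5 values under 1 belong to the 5 libraries with thinly covered first exons, and no value of the other 11 was below 25.71.

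Over exons 2 to 6, AQP3 was present in all 16 libraries. The levels were 38.51, 49.64, 35.59 and 25.82 at high gain/high intake. They were 63.13, 26.32, 29.55 and 29.89 at high gain/low intake. At low gain/high intake they were 61.91, 64.47, 68.66 and 46.01, and at low gain/low intake 64.29, 60.96, 19.53 and 54.4. The 5 libraries low in first exons again held the 5 lowest levels, at 19.53 to 29.89 against 35.59 to 68.66 in the other 11, so the drop is not limited to exon 1. Group means over exons 2 to 6 were 60.3 ± 9.90 at low gain/high intake, 49.8 ± 20.6 at low gain/low intake, 37.4 ± 9.81 at high gain/high intake and 37.2 ± 17.3 at high gain/low intake (SD, n = 4 each). Over exon 1 the order was the same, at 79.7 ± 22.1, 71.7 ± 48.5, 28.7 ± 24.1 and 9.68 ± 18.9.

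SLC5A1 had the lowest level of the 3 genes, read over exons 14 and 15, a region of 4111 bases at 72736642 to 72740752 on chromosome 17 (UMD3.1). High gain/high intake gave 16.41, 8.25, 15.57 and 17.42. High gain/low intake gave 9.41, 14.51, 10.42 and 5.64. Low gain/high intake gave 11.9, 10.54, 12.95 and 11.35, again the narrowest group, and low gain/low intake gave 7.41, 11.28, 4.33 and 10.94. Group means were 14.4 ± 4.18, 9.995 ± 3.65, 11.7 ± 1.01 and 8.49 ± 3.28 in that sequence (SD, n = 4 each), so the order ran from high gain/high intake down to low gain/low intake. In each library SLC14A1 was covered more deeply per base than SLC5A1, with a ratio of 2.20 to 26.6 and a median of 5.80.

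**Figure D1:**
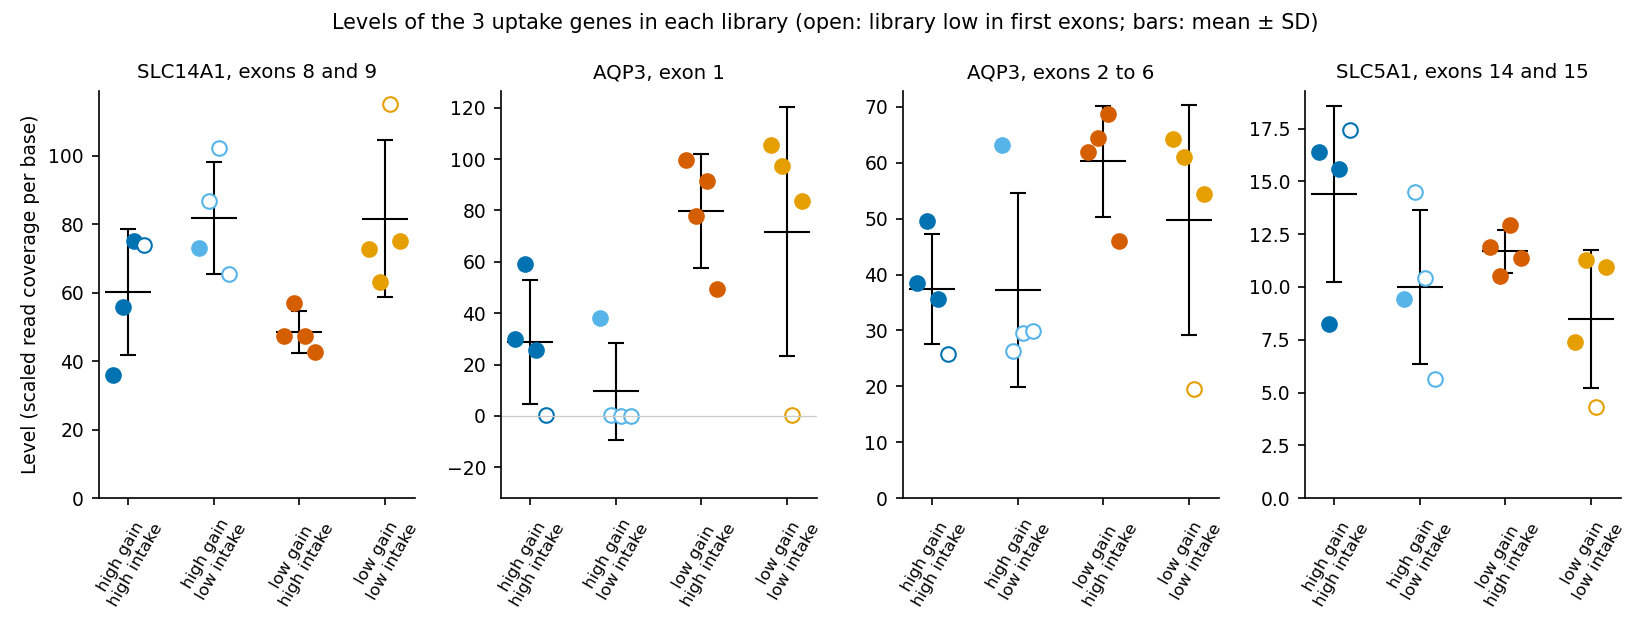
Level of SLC14A1 (exons 8 and 9), AQP3 exon 1, AQP3 exons 2 to 6 and SLC5A1 (exons 14 and 15) as mean coverage per base on the authors' scale (vertical axis), by group (horizontal axis). Each point is 1 animal, open points are the 5 libraries low in first exons, and bars are the group mean ± SD (n = 4). In the AQP3 exon 1 panel the open points lie at 0.15 to 0.38 and the filled points at 25.71 to 105.57.

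Among the 9470 genes tested, the mean level of SLC14A1 lay at percentile 97.2, that of AQP3 exon 1 at 95.5 and that of SLC5A1 at 77.8. The SD within groups on the log2(level + 0.1) scale, before limma moderates it across genes for the tests, was 0.35 for SLC14A1 and 0.49 for SLC5A1. Both are below the median of 0.65 over all genes. For AQP3 it was 3.25 over exon 1 (percentile 99.9 of all genes) and 0.55 over exons 2 to 6. The reads behind these levels were estimated at 4327 to 14163 per library for SLC14A1, 2780 to 10183 for AQP3 exons 2 to 6 and 440 to 2130 for SLC5A1. For AQP3 exon 1 they were 154 to 529 in the 11 libraries and 0.9 to 2.9 in the 5. Estimated reads as few as these carry large counting error, so the 5 low levels of AQP3 exon 1 are not distinguishable from each other.

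For AQP3 and SLC5A1, coverage in the 5 libraries was lowest relative to the other 11 in the first exons. For AQP3 exon 1 the mean was 0.212 in the 5 and 68.9 in the 11, a ratio of 0.00308, against a ratio of 0.475 over exons 2 to 6. For SLC5A1 exon 1, at 72690348 to 72690712, the means were 0.21 and 3.44. The ratio then rose from 0.254 at exon 3 and 0.159 at exon 4 to 0.667 at exon 13 and 0.913 over exons 14 and 15, though not evenly, with 0.617 at exon 6 and 0.303 over exons 8 and 9. Exon 2 of SLC5A1 has no region of its own, and a 50-base piece of exon 9 was listed at 0 in 15 libraries and held about 1 read in the other.

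SLC14A1 showed another profile, with a ratio of 1.21 over exons 1 and 2, 0.590 over exons 3 and 4, 0.686 at exon 5, 0.522 over exons 6 and 7, and 1.51 over exons 8 and 9. At its last exons the 5 libraries averaged 88.8 ± 20.3 and the other 11 averaged 58.7 ± 14.1 (SD), with overlapping ranges of 65.43 to 115.15 and 36.09 to 75.23. The ratio of exon 5 to exons 8 and 9 within a library was 0.036 to 0.104 in the 5 and 0.122 to 0.205 in the 11. The same kind of ratio for AQP3, exon 1 to exons 2 to 6, was 0.00508 to 0.0144 in the 5 and 0.602 to 1.64 in the 11. The 5 libraries were thus lower than the 11 in both regions of AQP3. For SLC14A1 they averaged higher over exons 1 and 2 and over exons 8 and 9, and lower between these regions. The region of exons 1 and 2 spans 6249 bases with the intron between them, so its ratio does not give exon 1 alone.

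**Figure D2:**
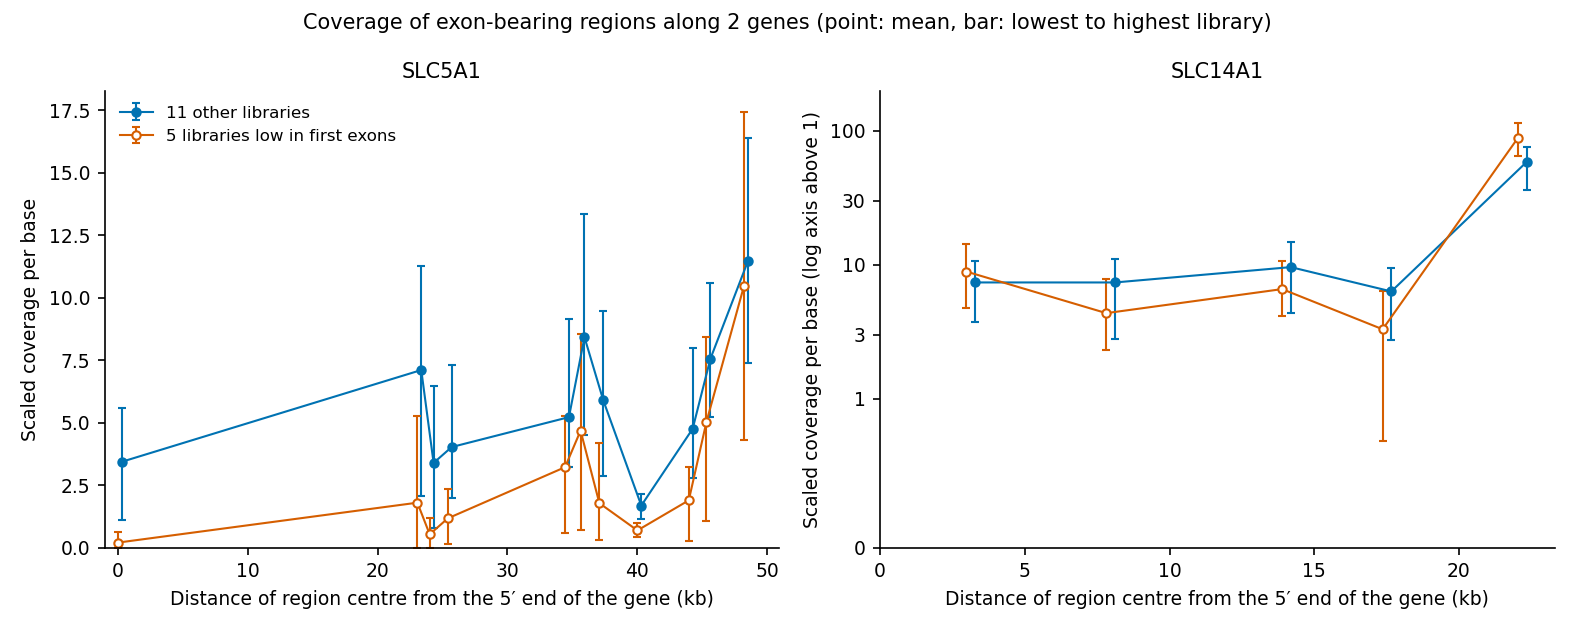
Mean coverage per base of each region (vertical axis, logarithmic above 1 for SLC14A1) against the distance of its midpoint from the 5′ end of the gene in kilobases (horizontal axis), for SLC5A1 and SLC14A1, as the mean (point) and range (bar) of the 5 libraries low in first exons and of the other 11. For SLC5A1 the 5 libraries are lowest relative to the 11 at exon 1 (0.21 against 3.44) and nearest to them over exons 14 and 15, and for SLC14A1 the 5 libraries are above the 11 at the last exons. The 50-base piece of SLC5A1 exon 9 is not drawn.

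For intake, the 8 high-intake animals were set against the 8 low-intake animals, with the 4 groups weighted equally, and differences are high minus low. SLC14A1 averaged 54.4 ± 14.1 at high and 81.8 ± 18.4 at low intake (SD), and 7 of 8 high-intake libraries were below the low-intake median. Its log2 difference was -0.60 (SE 0.19, 95% interval -0.997 to -0.20), with an unadjusted p of 0.00599 and an adjusted p of 0.529 (limma with Benjamini-Hochberg adjustment over 9470 genes). SLC5A1 averaged 13.0 ± 3.17 at high and 9.24 ± 3.31 at low intake, and 7 of 8 high-intake libraries were above the low-intake median. Its log2 difference was 0.55 (SE 0.25, interval 0.02 to 1.07), with an unadjusted p of 0.0431 and an adjusted p of 0.529 (limma). The urea channel and the glucose transporter thus had estimates of opposite sign, neither past the threshold of 0.05 on adjusted p.

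AQP3 over exons 2 to 6 had a mean of 48.8 ± 15.3 at high and 43.5 ± 18.9 at low intake, with a log2 difference of 0.23 (SE 0.27) and an adjusted p of 0.698 (limma over 71017 exon regions). Over exon 1 the difference was 2.57 (SE 1.503, interval -0.65 to 5.79, adjusted p = 0.529, limma). No member passed for intake, and percent called over all genes was 0% (0 of 9470, limma). Before adjustment 2 of the 3 members had p under 0.05, beside 8.27% of all genes (783), and the ordinary limma fit, with neither trend nor robust options, also called 0 after adjustment.

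Without the 5 libraries low in first exons, SLC14A1 was at 51.6 ± 12.6 at high intake (n = 7) and 71.1 ± 5.33 at low intake (n = 4). Its log2 difference was -0.50 (SE 0.20, adjusted p = 0.486, limma), and 6 of 7 high-intake libraries were below the low-intake median. SLC5A1 was at 12.4 ± 2.84 and 9.76 ± 1.77, with a log2 difference of 0.35 (adjusted p = 0.608, limma). The estimate for AQP3 exon 1 turned to -0.20 (adjusted p = 0.797, limma), and that for exons 2 to 6 to -0.32. The signs for SLC14A1 and SLC5A1 were thus the same with and without these libraries, and the sign for AQP3 was not.

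Every tested region of both genes had the same sign for intake. The 5 regions of SLC14A1 had log2 differences of -0.60 to -0.22 with a median of -0.45. The 11 tested regions of SLC5A1 had differences of 0.55 to 1.47 with a median of 0.91, beside 53.6% of all 71017 exon regions with a positive sign and a median of 0.06. The regions of a gene come from the same libraries and are not separate evidence. SLC5A1 exon 7, at 72726074 to 72726177, had the smallest unadjusted p of that gene, with 9.41 ± 2.29 at high and 5.11 ± 2.63 at low intake (difference on the log2 scale 1.08, SE 0.39, unadjusted p = 0.0154, adjusted p = 0.640, limma). Of the 18 member regions tested, 5 had an unadjusted p under 0.05 and none passed after adjustment, where percent called was 6.2% before and 0% after adjustment over all regions. Without the 5 libraries all 11 SLC5A1 regions were still positive, at 0.23 to 0.76, and all 5 SLC14A1 regions negative, at -0.60 to -0.30. Leaving out low gain/low intake replicate 3 alone lowered the median over SLC5A1 regions to 0.42 and exon 7 to 0.69, with all 11 still positive.

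Summed markers of other cell types are given beside these values. The sums were not tested, and no single marker passed for intake (limma). The summed level of 6 fibroblast markers was 186 ± 50.3 (132 to 290) in high-intake and 335 ± 236 (147 to 899) in low-intake animals, with overlapping ranges, and 5 of 6 estimates were negative. That of 8 endothelial markers was 18.9 ± 5.77 (11.2 to 27.1) and 24.1 ± 7.98 (10.1 to 32.6), with 3 estimates positive and 5 negative. For 5 of 8 leukocyte markers it was 27.1 ± 7.99 (14.1 to 37.5) in high-intake and 17.1 ± 5.02 (11.1 to 27.3) in low-intake animals. There 4 estimates were positive and 1, that of PTPRC, was negative. CD14 alone averaged 20.1 ± 7.71 at high and 11.6 ± 4.49 at low intake, so the sum mostly follows this gene. The part of these cells in the differences of SLC14A1 and SLC5A1 was not tested. Red blood cells, which carry SLC14A1, left little trace. Of 9 erythrocyte markers, only AHSP, a chaperone of alpha globin, passed the filter (0.611 ± 0.317 at high and 0.476 ± 0.382 at low intake). The beta globin gene HBB averaged 0.062 over its exon regions, ALAS2, the heme synthesis enzyme of red cells, averaged 0.0425, and SLC4A1 had no exon region of its own.

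For gain, the 8 high-gain animals were set against the 8 low-gain animals in the same way. AQP3 exon 1 averaged 19.2 ± 22.5 at high and 75.7 ± 35.2 at low gain (SD), and 8 of 8 high-gain libraries were below the low-gain median. Its log2 difference was -3.64 (SE 1.503, interval -6.86 to -0.42), with an unadjusted p of 0.0294 and an adjusted p of 0.847 (limma over 9470 genes). Over exons 2 to 6 AQP3 averaged 37.3 ± 13.0 at high and 55.03 ± 16.0 at low gain, with 7 of 8 high-gain libraries below the low-gain median. There the log2 difference was -0.54 (SE 0.27, interval -1.11 to 0.02, unadjusted p = 0.0588, adjusted p = 0.528, limma over 71017 exon regions). AQP3 thus had negative estimates in both regions, by very different amounts. Among possible signs of RNA quality, the mitochondrial share of coverage was 18.3 ± 6.61% at high and 12.6 ± 4.39% at low gain and the exon share 59.8 ± 4.99% and 65.3 ± 4.22% (SD, n = 8 each). Their part in the AQP3 difference was not tested.

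SLC14A1 averaged 71.1 ± 19.8 at high and 65.1 ± 23.5 at low gain (difference on the log2 scale 0.14, SE 0.19, interval -0.26 to 0.54, adjusted p = 0.853, limma). SLC5A1 was at 12.2 ± 4.33 and 10.1 ± 2.82 in turn (log2 0.25, SE 0.25, interval -0.28 to 0.78, adjusted p = 0.847, limma). Neither gene differed with gain beyond the spread between animals, and the intervals allow a change of either sign. No member passed for gain, and percent called over all genes was 0% (0 of 9470, limma, and 0 without trend and robust options). Before adjustment 1 of 3 members had p under 0.05, AQP3, beside 5.33% of all genes (505).

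The gain result of AQP3 moved with the libraries low in first exons, which hold 4 of its 8 high-gain values. Without them exon 1 averaged 38.1 ± 14.8 (25.71 to 59.02, n = 4) at high and 86.5 ± 18.9 (49.48 to 105.57, n = 7) at low gain. Its log2 difference was then -1.22 (SE 0.28, unadjusted p = 0.00108), with an adjusted p of 0.0529 over exon regions and 0.0782 over genes (limma). Over exons 2 to 6 the levels were 46.7 ± 12.5 and 60.1 ± 7.58, with a log2 difference of -0.23 (adjusted p = 0.697, limma). In these 11 libraries the ratio of exon 1 to exons 2 to 6 was 0.602 to 1.19 at high and 1.08 to 1.64 at low gain. Their first-exon index still ran lower at high gain (-3.25 to -2.47) than at low gain (-2.62 to -1.94), with overlapping ranges. Leaving out the 5 libraries therefore did not make first-exon coverage equal between the gain classes. The sign of both AQP3 regions was thus negative with and without the 5 libraries, and the size fell by more than 1.5 times in each.

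One low-gain library decided whether AQP3 was called. Without low gain/low intake replicate 3, the only low-gain library low in first exons, exon 1 had a log2 difference of -4.69 (SE 1.19, adjusted p = 0.0269, limma over exon regions) and exons 2 to 6 of -0.74 (SE 0.20, adjusted p = 0.0352). In that fit 7576 exon regions passed, where 71017 were tested over all 16 libraries, so a call was common and not particular to AQP3. In the fit over genes AQP3 still missed the threshold, at an adjusted p of 0.0694 (limma). With the first-exon index as a covariate the gain estimates turned, to 0.47 (SE 0.70) for AQP3 exon 1 and -0.17 (SE 0.18) for SLC14A1. Gain and low first-exon coverage go together in these samples and cannot be fully told apart.

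**Figure D3:**
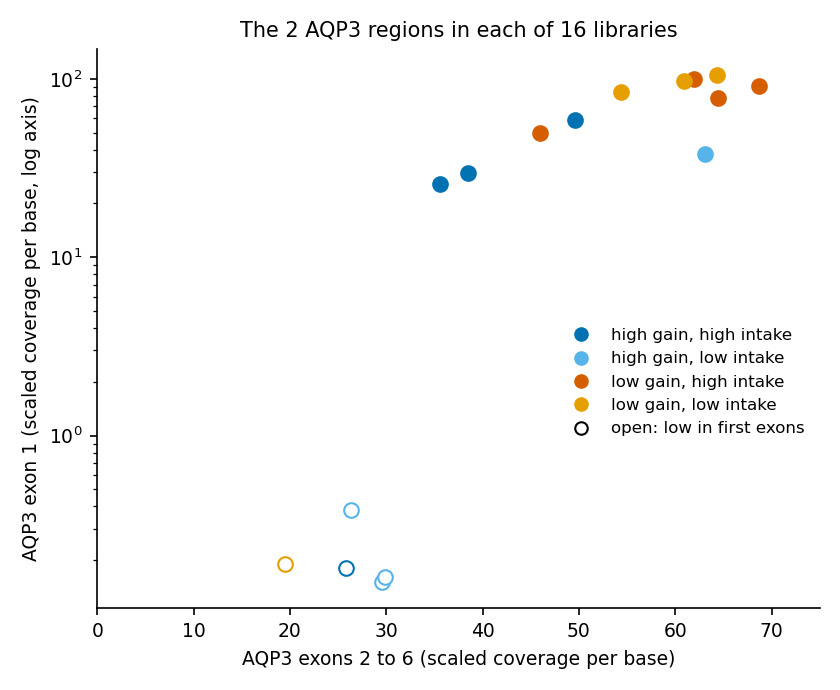
Level of AQP3 exon 1 (vertical axis, logarithmic) against the level over exons 2 to 6 (horizontal axis), both as mean coverage per base on the authors' scale, with 1 point per animal marked by group and the 5 libraries low in first exons drawn open. The 5 open points lie at 0.15 to 0.38 for exon 1 and 19.53 to 29.89 for exons 2 to 6, apart from the other 11 on both axes.

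Along SLC5A1 the gain estimates ran from -1.54 at exon 1 to 0.25 over exons 14 and 15, with 7 of 11 tested regions negative and a median of -0.45. For SLC14A1 4 of 5 regions were negative (median -0.26), the last exons being the exception at 0.14. Over all 71017 exon regions 37.5% were positive for gain, with a median of -0.17. Of the 18 member regions 1 had an unadjusted p under 0.05 for gain, AQP3 exon 1, beside 9.8% of all regions, and 0% of all regions passed after adjustment (limma). Without the 5 libraries SLC5A1 exon 1 was at a log2 difference of -0.995 (adjusted p = 0.147, limma) and exon 3 at -1.12 (adjusted p = 0.137). The sign of a gain estimate for these 2 genes therefore depends on which exons are read.

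**Figure D4:**
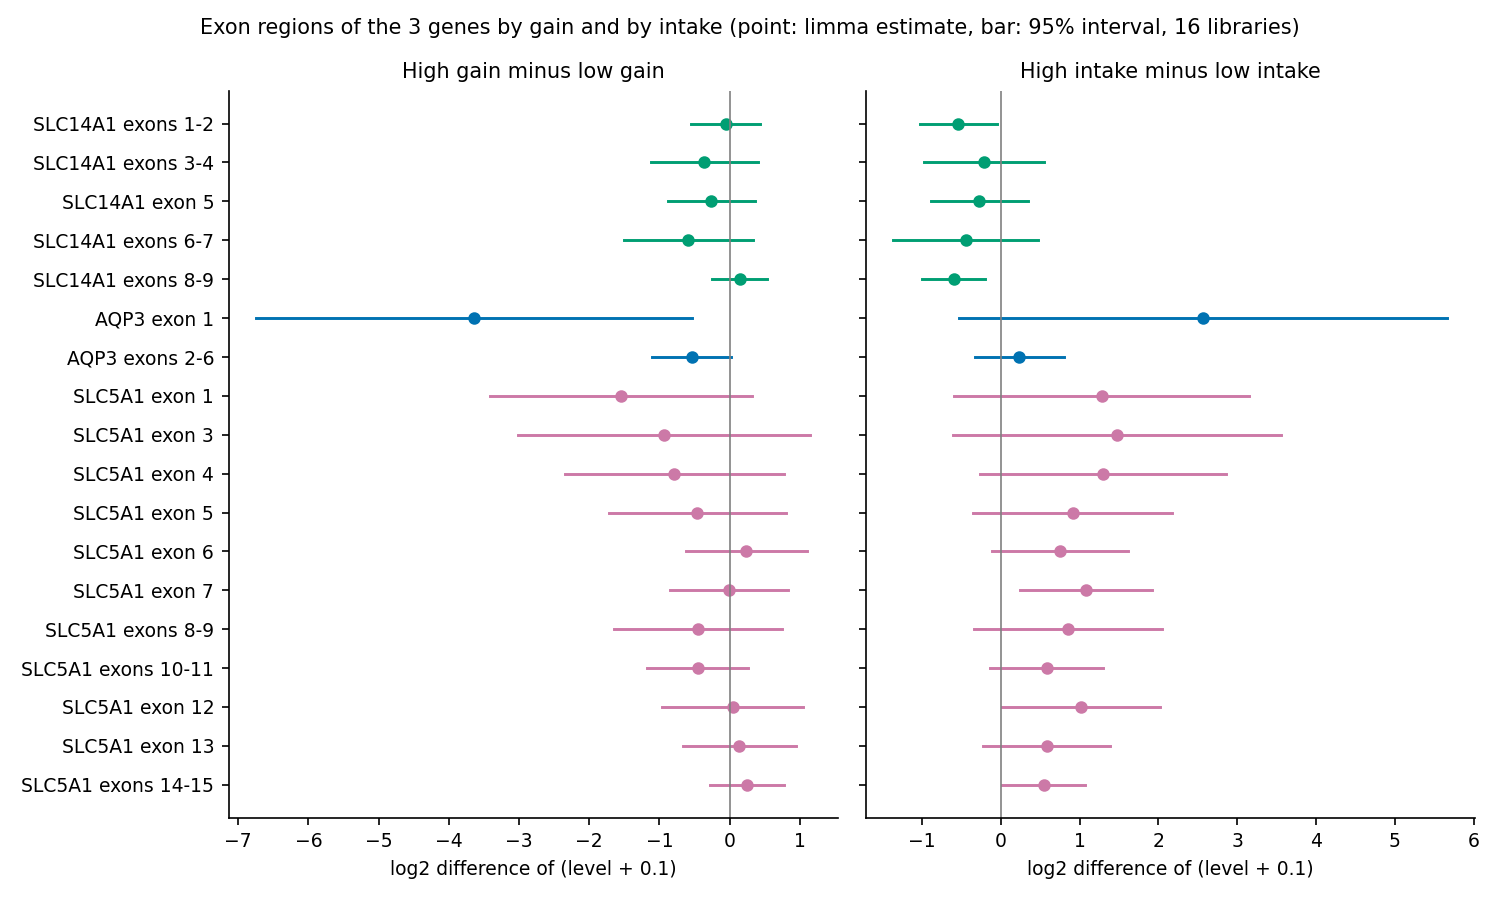
Log2 difference (horizontal axis) with its 95% interval from limma for the 18 tested exon regions of SLC14A1, AQP3 and SLC5A1 (vertical axis, in order of exon number), for gain (high minus low) and intake (high minus low), 8 against 8 animals. For intake all 5 SLC14A1 regions lie below 0 and all 11 SLC5A1 regions above it, and for gain AQP3 exon 1 has the lowest estimate (-3.64).

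Summed markers of other cell types are given beside the AQP3 values. The sums were not tested, and no single marker passed for gain (limma). The summed level of 8 endothelial markers was 15.9 ± 4.73 (10.1 to 23.9) at high and 27.2 ± 4.22 (21.6 to 32.6) at low gain, with all 8 estimates negative. The 6 smooth muscle markers summed to 16.8 ± 12.4 (2.1 to 37.9) and 47.0 ± 28.6 (3.25 to 96.8), also with all 6 negative, and all 6 fibroblast markers were negative as well. For the 7 basal keratinocyte markers, the cells in which AQP3 is typically found, the sum was 767 ± 368 (247 to 1306) at high and 842 ± 307 (197 to 1261) at low gain. Of the 7 estimates 3 were positive and 4 negative. The basal keratinocyte sum was 485 ± 330 in the 5 libraries low in first exons and 949 ± 213 in the other 11. The smooth muscle sum was 8.40 ± 7.20 in the 5 and 42.6 ± 24.9 in the 11. For endothelial markers these sums were 17.5 ± 7.98 and 23.4 ± 6.46, and for fibroblast markers 352 ± 314 and 219 ± 65.2. The part of these cells in the AQP3 difference was not tested.

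The interaction, the difference of the gain effect between high and low intake, was 1.56 (SE 3.01) for AQP3 exon 1, 0.24 (SE 0.37) for SLC14A1 and -0.00 (SE 0.49) for SLC5A1 on the log2 scale. Each had an adjusted p of 1.00 (limma). No member had an unadjusted p under 0.05, beside 0.528% of all genes (50), and 0% of 9470 passed. Of the 18 member regions none had one either, beside 1.24% of all exon regions. The gain effect of each gene was not shown to differ between intake levels, with wide intervals of -0.56 to 1.03 for SLC14A1 and -1.06 to 1.05 for SLC5A1. For AQP3 the sign depended on the region, with -0.33 over exons 2 to 6.

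The groups that gained most on least feed and least on most feed were compared as high gain/low intake against low gain/high intake (4 against 4). SLC14A1 was higher in each of the 4 high-gain animals (65.43 to 102.43) than in any of the other 4 (42.55 to 56.96), with a log2 difference of 0.74 (SE 0.26, interval 0.18 to 1.30, adjusted p = 0.367, limma). AQP3 exon 1 was lower in each of the 4 high-gain animals (0.15 to 38.01 against 49.48 to 99.79), at -6.21 (SE 2.13, adjusted p = 0.367, limma). Groups that do not overlap were seen for 2 of the 3 members and for 29% of all 9470 genes, so non-overlap was common here. Over exons 2 to 6 AQP3 ranges overlapped, with a log2 difference of -0.77 (SE 0.38, adjusted p = 0.311, limma over exon regions). SLC5A1 was at -0.30 (SE 0.35, adjusted p = 0.578, limma).

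No gene passed in this comparison (0% of 9470), and before adjustment 2 of 3 members, SLC14A1 and AQP3, had p under 0.05 beside 13.5% of all genes (1282). The high gain/low intake group holds 3 of the 5 libraries low in first exons and the other group holds none. Without the 5 libraries 1 animal stays in that group, and the differences were 0.59 (SE 0.33, adjusted p = 0.535) for SLC14A1, -1.02 (SE 0.45, adjusted p = 0.438) for AQP3 exon 1 and -0.31 (SE 0.37, adjusted p = 0.785) for SLC5A1 (limma, the lone animal taken to vary like those of the other groups). The low first-exon coverage and the group cannot be told apart in this comparison. This contrast shares its samples with the gain and intake contrasts and is not separate evidence.

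Other genes of urea, water and glucose handling were read from 4 lists, and 0 genes of any list passed in any of the 4 comparisons (limma). Urea and ammonia handling had 10 of 17 genes tested. For gain 4 estimates were positive and 6 negative (median -0.12, all genes -0.05), and for intake 5 and 5 (median -0.06, all genes -0.01). Beside SLC14A1, the highest levels were those of GLUL, the glutamine synthetase that binds ammonia into glutamine, at 29.1 ± 11.2, and GLUD1, a glutamate dehydrogenase, at 25.5 ± 4.99 over 16 libraries. ARG1, the arginase that splits arginine into urea and ornithine, was at 13.7 ± 6.004. GLUD1 stood at 23.0 ± 3.38 at high and 28.1 ± 5.21 at low intake, but only SLC14A1 of this list had an unadjusted p under 0.05 for intake. The other urea transporter gene, SLC14A2, had no exon region of its own.

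Of 14 aquaporins 5 were tested, with 1 positive and 4 negative estimates for gain (median -0.83) and 3 and 2 for intake (median 0.22). AQP5, a water channel of glands and other epithelia, was at 112 ± 72.7 over 16 libraries, with 74.1 ± 54.6 at high and 150 ± 71.4 at low gain. Its region also contains a first exon. AQP1, the water channel of capillary endothelium and red cells, averaged 4.90 ± 1.53 at high and 8.48 ± 4.13 at low gain (adjusted p = 0.847, limma); the endothelial marker sums are given above. AQP2, the vasopressin-regulated channel of the kidney, averaged 0.811. AQP1 and AQP3 were the 2 aquaporins with an unadjusted p under 0.05 for gain.

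Glucose entry and first phosphorylation had 11 of 22 genes tested, with 6 positive and 5 negative estimates for gain (median 0.01) and 7 and 4 for intake (median 0.21). HK1, the hexokinase that traps glucose as its phosphate, was at 24.8 ± 8.16, above SLC5A1 itself. SLC2A1, the widely expressed facilitative glucose carrier GLUT1, was at 5.96 ± 2.16, and SLC2A11, a related carrier, at 4.94 ± 2.37. SLC5A1 and SLC5A9, another sodium-coupled sugar transporter, were the 2 genes with an unadjusted p under 0.05 for intake. The sodium pump list, which holds the gradient SLC5A1 uses, had 7 of 15 genes tested, with 1 positive and 6 negative for gain (median -0.57) and 5 and 2 for intake (median 0.43). Its beta subunit ATP1B3 was at 58.1 ± 20.3. The regulators FXYD3 and FXYD6 were at 23.0 ± 7.92 and 15.1 ± 7.26. ATP1B3 averaged 50.0 ± 16.5 at high and 66.3 ± 21.4 at low intake, in the opposite order to SLC5A1.

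The levels of the 3 genes were compared across animals in the 11 libraries not low in first exons, as 3 pairs. SLC14A1 and AQP3 exon 1 had a Pearson's r of 0.11 (permutation p = 0.750, adjusted p = 0.750) and a Spearman's rho of 0.04 (permutation p = 0.925). For SLC14A1 and SLC5A1 r was -0.44 (permutation p = 0.175, adjusted p = 0.263) and rho -0.42 (permutation p = 0.201). For AQP3 exon 1 and SLC5A1 r was -0.51 (permutation p = 0.112, adjusted p = 0.263) and rho -0.37 (permutation p = 0.260). Leaving out the 2 animals farthest from the median changed r to -0.46, -0.16 and 0.16 in that sequence. No pair held a relation past the threshold, and both pairs with AQP3 changed sign, so their pooled values rest on those animals. With each group's mean subtracted, r for AQP3 exon 1 and SLC5A1 was -0.61, and -0.52 without the 2 farthest animals. In that form it kept its sign. High gain/low intake keeps 1 library here, which the subtraction leaves without any spread. Free permutation takes no account of the subtracted means, so no p is given.

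The genes whose log2 levels ran most like those of each member in the same 11 libraries were chosen as the 5 highest of all tested genes. They are a description, since libraries share depth and coverage along genes. For SLC14A1 they were MGP, which encodes an inhibitor of calcification (r = 0.94), HAGH (0.90), PEBP1 (0.90), C8H9orf156 (0.90) and HIBCH, an enzyme of valine breakdown (0.89). Over all 16 libraries PEBP1 (0.86) and HIBCH (0.87) were still close, whereas HAGH was at -0.52 and MGP at 0.49. For SLC5A1 the genes were S100A8 (0.93), BACE2 (0.93), HHATL (0.91), GPX3, a secreted glutathione peroxidase (0.90), and S100A9 (0.89). S100A8 and S100A9, which encode the 2 subunits of calprotectin, a protein of neutrophils and of keratinocytes, kept r at 0.91 and 0.89 over 16 libraries.

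For AQP3 the nearest genes differed with the region. Over exon 1 they were HLX (r = 0.95), ATP5B, the beta subunit of ATP synthase (0.94), the splicing factor gene SRSF2 (0.93), MAST1 (0.92) and C1QTNF1 (0.92). Over exons 2 to 6 they were the transglutaminase gene TGM2 (0.94), TCF21 (0.93), DAB2IP (0.93), EDNRB, an endothelin receptor (0.92), and THBS4 (0.92). The lists for the 2 regions share no gene. Over all 16 libraries r with exon 1 of AQP3 was 0.99 for ATP5B, 0.96 for SRSF2 and 0.59 for HLX, and r of EDNRB with exons 2 to 6 was -0.28.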

How the data were processed

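The deposited file gives, per the file headers, one signal value per region and library: read coverage of an annotated region, which the values show to be mean coverage per base, scaled so that each library's total of value times length is 591 to 596 Mb. Reads were aligned to UMD3.1 with TopHat2 2.08b, per the submitters' processing notes. Neither the coverage tool nor the annotation is given in the sources used here. The authors' deposited summary columns (a summed signal, a log2 ratio, a fold ratio and a p-value) were not used.

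All 16 columns were matched by the number in each title, and replicates are numbered in accession order. Regions naming exons of several genes (523 of 113576) were left out. Each gene's level was its exon region of highest mean. Of 12040 genes, 9470 reached 0.5 in at least 4 libraries and 2570 did not. Of the 19 member regions, 18 passed. Values were analysed as log2(value + 0.1), so fold changes of low values are understated. Limma 3.58.1 in R 4.3.3 (trend and robust) was fitted on 4 group means, with Benjamini-Hochberg adjustment and a threshold of 0.05. Correlations used 100000 permutations in scipy 1.17.1. The limma code was tested on simulated data with independent normal noise, each gene's SD capped at the lower quartile of all genes. That simulation held no libraries low in first exons, so it checks the code and not its power or error rate in these data. Read numbers were estimated from the value of 1 read in a region of 50 bases. The limma p-values set a difference against the spread within groups, in which differences between animals and between libraries cannot be told apart.

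The members and lists were chosen with earlier results of these data known. Genes named are the members, the 5 genes most correlated with each, and the 4 of highest mean level in each list (3 of the 4 besides a member), less 1 gene that is not reported here. Markers, SLC5A9, SLC5A1 exon 7 and SLC14A2 were named after their values were seen. Symbols were matched to the RefSeq table of another assembly for names only (3 of 3 members). Alternatives covered the pseudocount, filter, quantile normalization, limma options, the region standing for a gene, the first-exon index, and leaving out libraries.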

Additional observations from a re-analysis of the deposited data

Results flagged for a closer look

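In the group of high gain/low intake, replicate 1 stood apart from the other 3 libraries in both AQP3 regions. For exon 1 it was at 38.01, and its gap to the next library was 0.994 of the group's whole range. Over exons 2 to 6 it was at 63.13, with a gap of 0.903 of the range. Both are above Dixon's 95% critical value for 4 samples. It is the only library of that group that is not low in first exons, and its first-exon index of -3.25 is the lowest of the 11. In all, 16 groups were tested (4 levels in 4 groups), and chance alone picks out about 5% of groups. SLC14A1 and SLC5A1 had no such library in any group.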

How the results depend on the processing

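No paired analysis was possible because each library has an animal number of its own in the labels. Over 26 alternatives, the intake difference stayed negative for SLC14A1 (-0.66 to -0.44, limma adjusted p 0.185 to 0.807) and positive for SLC5A1 (0.35 to 0.67, adjusted p 0.220 to 0.872), and neither passed. For AQP3 the gain difference ran from -4.69 to 0.47 (adjusted p 0.0694 to 1.00). Read as the length-weighted mean of all its exon regions, it was -0.59 (SE 0.28, adjusted p = 0.769, limma).

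When the 5 libraries low in first exons were left out, the AQP3 intake difference reversed to -0.20, the SLC5A1 interaction to 0.18, and genes called were 65 for gain and 2 for high gain/low intake against low gain/high intake, with 1290 exon regions for gain. With the first-exon index as covariate, gain reversed to -0.17 for SLC14A1 and 0.47 for AQP3, with 1552 of 9470 genes called. The median gain difference over regions became 0.28 for SLC14A1, 0.30 for AQP3 and 0.90 for SLC5A1. The SLC5A1 interaction, near 0, also reversed to 0.0029 with a pseudocount of 0.5 and 0.012 with the weighted mean, and ran from -0.25 to 0.28 with 1 library left out. The AQP3 interaction reversed to -0.31 with the weighted mean and to -0.33 with the best region without a first exon. The weighted mean called 2 genes for intake, and quantile normalization 1 exon region for gain. It moved the median of all genes by 0.22 for gain. Leaving out 1 library gave 0 to 71 genes called for gain (71 without low gain/low intake replicate 3), 0 to 1 for intake and 0 to 1 for the opposite groups. Exon regions called ran from 0 to 7576 for gain (7576 without that same library) and 0 to 3 for intake (3 without high gain/high intake replicate 4), and member regions called for gain from 0 to 2. Over all 16 libraries r was -0.62 for SLC14A1 and AQP3 (adjusted permutation p = 0.0307) and 0.22 for AQP3 and SLC5A1, both reversed. The cause of these changes was not tested. Depth limits SLC5A1 most, with a median of 4.1 estimated reads at exon 4.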

Other observations

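Coverage of introns gave a second reading of 2 of the genes, with no exon in the regions used. SLC14A1 had 14 intron regions of 1488 bases in all, at 0.234 to 1.04 per library (median 0.373). They averaged 0.337 ± 0.0997 at high and 0.602 ± 0.298 at low intake (SD, n = 8 each), the same order as its exons. SLC5A1 had 180 intron regions of 16849 bases, at 0.0408 to 0.175 per library, with 0.101 ± 0.0353 at high and 0.0782 ± 0.0466 at low intake, also in the order of its exons. AQP3 had no such region. These values were not tested. They can include RNA that was not spliced and sequence missing from the annotation, and a region is listed where reads were found.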
